A study of Mus musculus with 8 samples.

Results

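The genes described here are Myc and 40 genes of ribosome biogenesis and polyamine synthesis that are textbook markers of Myc-driven growth. They were given by name, 41 in all, by a rule that uses no measured value, though with earlier results of these data known. Of these, 39 had a transcript cluster of their own on the array, out of 19938 genes with a single symbol. Ppan shared its cluster with another gene and was not analysed here, nor was Noc2l. Where a gene had several clusters (3 of the 39), the one with the highest mean signal was used. None of the 39 lies on chromosome 16, which carries Bcl6.

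The data come from 8 Affymetrix whole-transcript arrays, each hybridised with RNA of 1 sample. Sorted naive CD4 T cells, the helper T cells that have not yet met antigen, came from wild-type mice (WT, 4 samples) and from T cell-specific conditional Bcl6-/- mice (Bcl6 cKO, 4 samples), in which T cells alone lose the gene. Bcl6 is a transcriptional repressor known for directing follicular helper T cells. All 8 samples were activated for 24 hours through CD3 and CD28 with antibodies, and no unstimulated sample was analysed here, so the comparison is between genotypes after activation. The labels name neither the Cre line, the deleted exons, the age of the mice nor any pooling, and carry the tag Tf0 without defining it. Whether each sample is a different mouse is not stated either, so the p-values reflect sample-to-sample spread that may be technical in part. The sex-linked signals given below differ within each genotype, so not all samples of a genotype come from 1 mouse. All values are log2 signals, in which a difference of 1 is a doubling.

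Myc is a transcription factor that is induced within hours of T cell activation and drives the growth of the cell before it divides. It binds, with its partner Max, the E-box motif CACGTG near the start of many genes, among them genes for building ribosomes. Ribosomes are assembled in the nucleolus: RNA polymerase I transcribes the ribosomal RNA precursor, small nucleolar ribonucleoproteins (snoRNPs) direct its chemical modification, and assembly factors cut and fold it into the small and the large subunit. Polyamines, made from ornithine, are needed for the same growth phase.

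Some facts of the whole series bear on what follows. The deleted gene was not lower in Bcl6 cKO (Bcl6 8.37 in WT and 8.74 in Bcl6 cKO, adjusted p = 0.337 by limma), and with the deleted exons unknown this checks nothing about the labels. Kdm5d and Uty, which are Y-linked, had high signals and Xist a low one on WT replicates 1 to 3 and Bcl6 cKO replicate 1, and the reverse held on WT replicate 4 and Bcl6 cKO replicates 2 to 4, so sex and genotype overlap in part. WT replicate 4 stood apart: the interquartile range of all genes' deviations from their medians over the 8 arrays was 0.18 there and between 0.085 and 0.115 on each other array. The 9 defining T cell genes measured, Cd3e and Cd4 among them, lay between 10.75 and 13.2. Of these, 1 was higher and 8 lower in Bcl6 cKO (median difference -0.07). The groups did not overlap for 2 of the 9 (22.2%), both lower, against 3.64% of all genes lower. The smallest p-values of the 9 were those of Cd3d (difference -0.17, adjusted p = 0.242) and Cd28 (-0.14, adjusted p = 0.548). The mean of the B cell markers was 6.21 to 6.31 and that of the myeloid and dendritic cell markers 6.17 to 6.32 on all 8 arrays. In these lists Ms4a1 differed by -0.17 and Pax5 by 0.11, and Fcgr3 differed by -0.32 with groups that did not overlap (adjusted p = 0.131) and Itgam by -0.12. Lyz2, a myeloid marker, read 7.67 on Bcl6 cKO replicate 2 and 5.82 to 6.58 on the other arrays (difference 0.11). The 3 erythroid and platelet markers averaged 5.46 to 5.55 on the WT arrays and 5.52 to 6.28 on the Bcl6 cKO arrays. Their differences were 0.09 for Alas2, 0.17 for Pf4 and 0.38 for Ppbp. Ppbp read 6.59 on Bcl6 cKO replicate 2 and 4.88 to 5.14 on the other arrays. Of 9 CD8 T and NK cell markers 2 were higher and 7 lower in Bcl6 cKO, with means of 6.85 to 7.10 on the WT and 6.84 to 7.02 on the Bcl6 cKO arrays. Among them Cd8a lay between 6.9 and 7.14, whereas Cd8b1 lay between 10.9 and 11.12 in WT and between 10.41 and 10.78 in Bcl6 cKO (adjusted p = 0.0541), and Klrb1c differed by -0.13. The part of these markers in the results below was not tested. The lowest of all member values, 9.15, stood above the highest Y-linked signal on arrays with high Xist (5.83), so no member was near the background of the array.

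To show where the Myc motif lies in these genes, the promoter windows of RefSeq (GRCm38.p6, 250 bases before to 50 after a transcript start) were searched for CACGTG, which reads the same on both strands. Windows were found for 32 of the 39 genes (all but Myc, Srm, Npm1, Fbl, Rrp12, Bop1 and Rrs1), and 7 of the 32 (21.9%) held the motif. The share was 9.52% of the 15563 tested genes with a window, 13.2% of the other genes in the members' range of mean signal, and 7.15% of all 32851 windows. The 30 bases around each match are printed below, on the strand of the gene, with CACGTG in capitals.
Nop2 (chr6:125131811-125131840, plus strand): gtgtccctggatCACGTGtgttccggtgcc
Pes1 (chr11:3963965-3963994, plus strand): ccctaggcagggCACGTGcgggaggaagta
Tsr1 (chr11:74898092-74898121, plus strand): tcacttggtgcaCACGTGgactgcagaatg
Wdr43 (chr17:71616220-71616249, plus strand): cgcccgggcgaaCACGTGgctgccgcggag
Mybbp1a (chr11:72441347-72441376, plus strand): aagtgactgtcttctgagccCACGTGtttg
Grwd1 (chr7:45830740-45830769, minus strand): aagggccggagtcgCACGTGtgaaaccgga
Utp20 (chr10:88826765-88826794, minus strand): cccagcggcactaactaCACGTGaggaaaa
In Nop2 the motif began 60 bases before the transcript start. In the other 6 it lay just after the start, its first base being base 3 of Pes1, 18 of Wdr43, 25 of Tsr1, 35 of Grwd1, 38 of Utp20 and 41 of Mybbp1a, counted from 1 at the first transcribed base of the window.

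Myc and nearly all of the ribosome biogenesis genes had slightly higher means in Bcl6 cKO than in WT, and none of them passed the test. The direction did not hold among the arrays of high Kdm5d and Uty, given below, where 1 knockout array was compared (median -0.02). Of the 39 genes, 38 had a higher mean in Bcl6 cKO and 1, Polr1c, a lower one. Their log2 differences ran from -0.03 to 0.22, with a median of 0.12, against a median of 0.00 over all 19938 genes, of which 52.1% were higher. Among the 4817 other genes in the members' range of mean signal, 56% were higher and the median was 0.02. In limma with Benjamini-Hochberg adjustment over all genes, 0 of 39 passed an adjusted p of 0.05 in either direction (adjusted p from 0.29 to 0.937), beside 0.105% of all genes higher and 0.115% lower. At an unadjusted p under 0.05, 11 of the 39 were higher (28.2%) and 0 lower, against 4.68% of all genes higher and 6.17% lower. Of the 4817 other genes in the members' range of mean signal, 420 were higher at that cutoff (8.72%) and 487 lower. With WT replicates 1 to 4 left out in turn, that count of 11 was 12, 7, 12 and 4. With Bcl6 cKO replicates 1 to 4 left out in turn, it was 15, 6, 4 and 6. The count was 1 without both WT replicate 4 and Bcl6 cKO replicate 3, a setting added after seeing the data. It was 3 with terms for sex and for replicate parity (odd or even). The groups did not overlap for 3 of the 39, Ncl, Gnl3 and Nop58, all higher in Bcl6 cKO (7.69%), against 2.33% of all genes higher and 3.64% lower. Among the 4817 genes of like signal the shares were 5% higher and 6.68% lower, so the members' count was near that background. The largest upper bound of any member's 95% interval was 0.50, that of Rrs1. These genes vary together across the arrays, so their counts are not independent of each other.

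**Figure D1:**
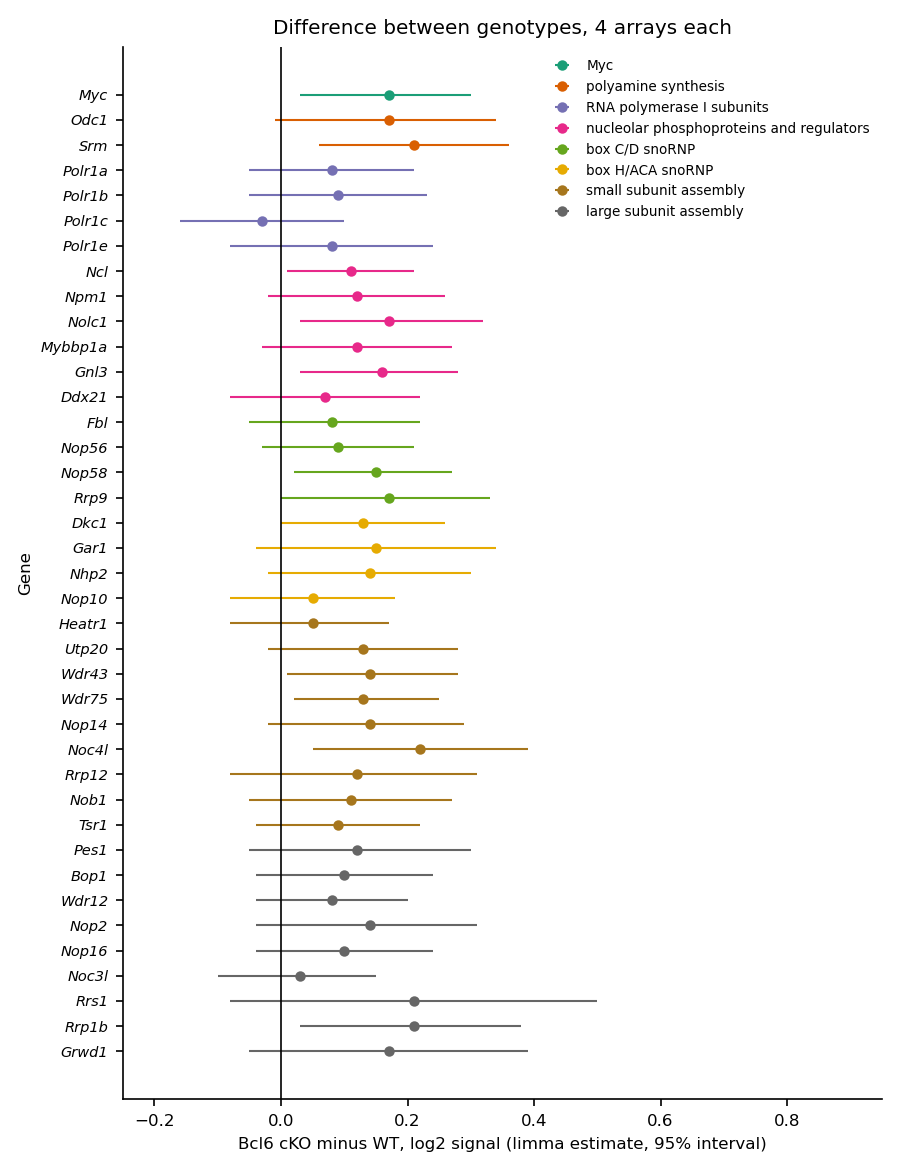
Log2 difference of each of the 39 genes (Bcl6 cKO minus WT, points) with the 95% interval of the limma estimate (bars), coloured by role, 4 arrays per genotype. 38 of the 39 points lie above 0, with a median of 0.12, and 11 intervals lie wholly above 0 before any adjustment for the number of genes tested.

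Myc itself read 12.86, 12.78, 12.87 and 12.69 on WT replicates 1 to 4, and 12.85, 12.96, 13.05 and 13.01 on Bcl6 cKO replicates 1 to 4. Bcl6 cKO replicate 1 lay among the WT values, while the other 3 knockout arrays were above every WT array. The difference was 0.17 (SE 0.062, 95% interval 0.03 to 0.30, n = 4 each), or 1.12-fold, and did not pass (limma adjusted p = 0.35). An exact permutation test (two-sided, over the 8 arrays) gave p = 0.0857 for Myc; such a test cannot go below 0.0286. Of the other 12 genes given per array below, Gnl3, Ncl and Nop58 were at that minimum, which groups that do not overlap always give, and the rest had exact p-values of 0.0857 to 0.486.

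Both enzymes of polyamine synthesis had higher means in Bcl6 cKO. Srm, spermidine synthase, read 13.01, 13.01, 13.02 and 12.87 in WT and 13.01, 13.18, 13.27 and 13.28 in Bcl6 cKO. Its values on Bcl6 cKO replicate 1 and on 3 of the WT arrays were within 0.01 of each other, and the other knockout arrays were higher. The difference was 0.21 (SE 0.069, n = 4 each), with the smallest adjusted p of the 39 genes (0.29). Odc1, ornithine decarboxylase, the first enzyme of the pathway, differed by 0.17 (95% interval -0.01 to 0.34), with the highest value, 11.42, on Bcl6 cKO replicate 3.

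The 4 subunits of RNA polymerase I showed differences of -0.03 to 0.09. Polr1b, the second-largest subunit, read 11.98, 11.99, 12.01 and 11.87 in WT and 11.94, 11.98, 12.19 and 12.10 in Bcl6 cKO. Its groups overlapped, and the difference of 0.09 did not pass (adjusted p = 0.689). Polr1a, the largest subunit, differed by 0.08, Polr1e by 0.08, and Polr1c, which RNA polymerase III also uses, by -0.03 (95% interval -0.16 to 0.10).

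All 6 nucleolar phosphoproteins and regulators had higher means in Bcl6 cKO, with differences of 0.07 to 0.17. Ncl, nucleolin, an abundant nucleolar RNA-binding protein, read 13.07, 13.11, 13.12 and 13.09 in WT and 13.19, 13.28, 13.18 and 13.18 in Bcl6 cKO. Every knockout array was above every WT array, and the WT values lay close together (SD 0.02). The difference was 0.11 (adjusted p = 0.422).

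Gnl3, nucleostemin, a GTP-binding nucleolar protein of dividing cells, read 11.50, 11.58, 11.61 and 11.41 in WT and 11.64, 11.72, 11.73 and 11.64 in Bcl6 cKO. Its groups did not overlap either, and the difference was 0.16 (adjusted p = 0.342). Nolc1, which binds snoRNPs, differed by 0.17, Npm1, the ribosome chaperone nucleophosmin, by 0.12, Mybbp1a by 0.12 and the RNA helicase Ddx21 by 0.07. Npm1 departed from the other members on WT replicate 4: its value there, 12.87, was the highest of its WT values.

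The box C/D snoRNP genes, most of whose products belong to particles that methylate ribosomal RNA, differed by 0.08 to 0.17. Nop58, a core protein of the particle, read 11.83, 11.84, 11.89 and 11.70 in WT and 11.91, 12.04, 11.98 and 11.91 in Bcl6 cKO. Every knockout array was above every WT array, with a difference of 0.15 (adjusted p = 0.384). Nop56, the related core protein, read 12.84, 12.87, 12.87 and 12.71 in WT and 12.84, 12.92, 12.99 and 12.90 in Bcl6 cKO. Its groups overlapped, and the difference was 0.09 (adjusted p = 0.625). The methyltransferase gene Fbl, fibrillarin, differed by 0.08 and Rrp9 by 0.17.

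The box H/ACA snoRNP genes, whose products convert uridine to pseudouridine, differed by 0.05 to 0.15. Dkc1, dyskerin, the pseudouridine synthase, read 11.80, 11.78, 11.88 and 11.68 in WT and 11.90, 11.88, 12.02 and 11.87 in Bcl6 cKO. The groups overlapped only through WT replicate 3, and the difference was 0.13 (adjusted p = 0.446). Nop10 read 12.33, 12.26, 12.36 and 12.14 in WT and 12.30, 12.30, 12.40 and 12.29 in Bcl6 cKO, a difference of 0.05 (adjusted p = 0.846). WT replicates 1 and 3 lay within the range of the knockout arrays, and WT replicates 2 and 4 below it. The other components, Gar1 and Nhp2, differed by 0.15 and 0.14.

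Of the 9 genes of small subunit assembly, all had higher means in Bcl6 cKO, by 0.05 to 0.22. Noc4l, a nuclear assembly factor, had the largest difference of all 39 genes. It read 11.40, 11.35, 11.38 and 11.15 in WT and 11.37, 11.60, 11.55 and 11.64 in Bcl6 cKO. Bcl6 cKO replicate 1 fell within the WT values and the other 3 lay above them, for a difference of 0.22, or 1.16-fold (SE 0.075, adjusted p = 0.306).

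Wdr43, a component of the small subunit processome, whose promoter window holds CACGTG, read 12.24, 12.16, 12.20 and 12.06 in WT and 12.20, 12.31, 12.40 and 12.32 in Bcl6 cKO. Its groups overlapped through Bcl6 cKO replicate 1, and the difference was 0.14 (adjusted p = 0.416). The remaining genes of this role were Wdr75 (0.13), Nop14 (0.14), Utp20 (0.13), Rrp12 (0.12), Nob1 (0.11), Tsr1 (0.09) and Heatr1 (0.05), none of which passed.

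The 9 measured genes of large subunit assembly also all had higher means in Bcl6 cKO, by 0.03 to 0.21. Rrp1b read 11.16, 11.13, 11.18 and 10.98 in WT and 11.09, 11.39, 11.43 and 11.36 in Bcl6 cKO, and again only Bcl6 cKO replicate 1 lay within the WT values. Its difference was 0.21 (adjusted p = 0.376). Nop16 read 11.91, 11.90, 11.93 and 11.76 in WT and 11.87, 11.97, 12.09 and 11.97 in Bcl6 cKO, a difference of 0.10 (adjusted p = 0.616).

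Pes1, Bop1 and Wdr12, which form one complex required for the large subunit, differed by 0.12, 0.10 and 0.08. The methyltransferase gene Nop2 differed by 0.14, Grwd1 by 0.17, Noc3l by 0.03 and Rrs1 by 0.21. Rrs1 had the widest interval of the 39 genes (-0.08 to 0.50), with 9.15 on WT replicate 4 against 9.75 to 9.83 on the other WT arrays.

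Most of the 39 genes followed the same arrays. WT replicate 4 was the lowest of the 8 arrays, ties included, for 34 of the 39 and Bcl6 cKO replicate 3 the highest for 33. Averaged over the members, WT replicate 4 lay 0.18 below the members' means over the 8 arrays, and Bcl6 cKO replicate 3 lay 0.15 above them. Bcl6 cKO replicates 2 and 4 lay 0.06 and 0.07 above, WT replicates 1 and 3 at 0.00, and Bcl6 cKO replicate 1 and WT replicate 2 below by 0.04 and 0.06. WT replicate 4 was also the lowest WT array for 60.9% of the 4817 other genes in the members' range of mean signal (mean signal 9.73 to 13.15), whose mean deviation there was -0.07. On Bcl6 cKO replicate 3 the mean deviation of these other genes was 0.03.

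**Figure D2:**
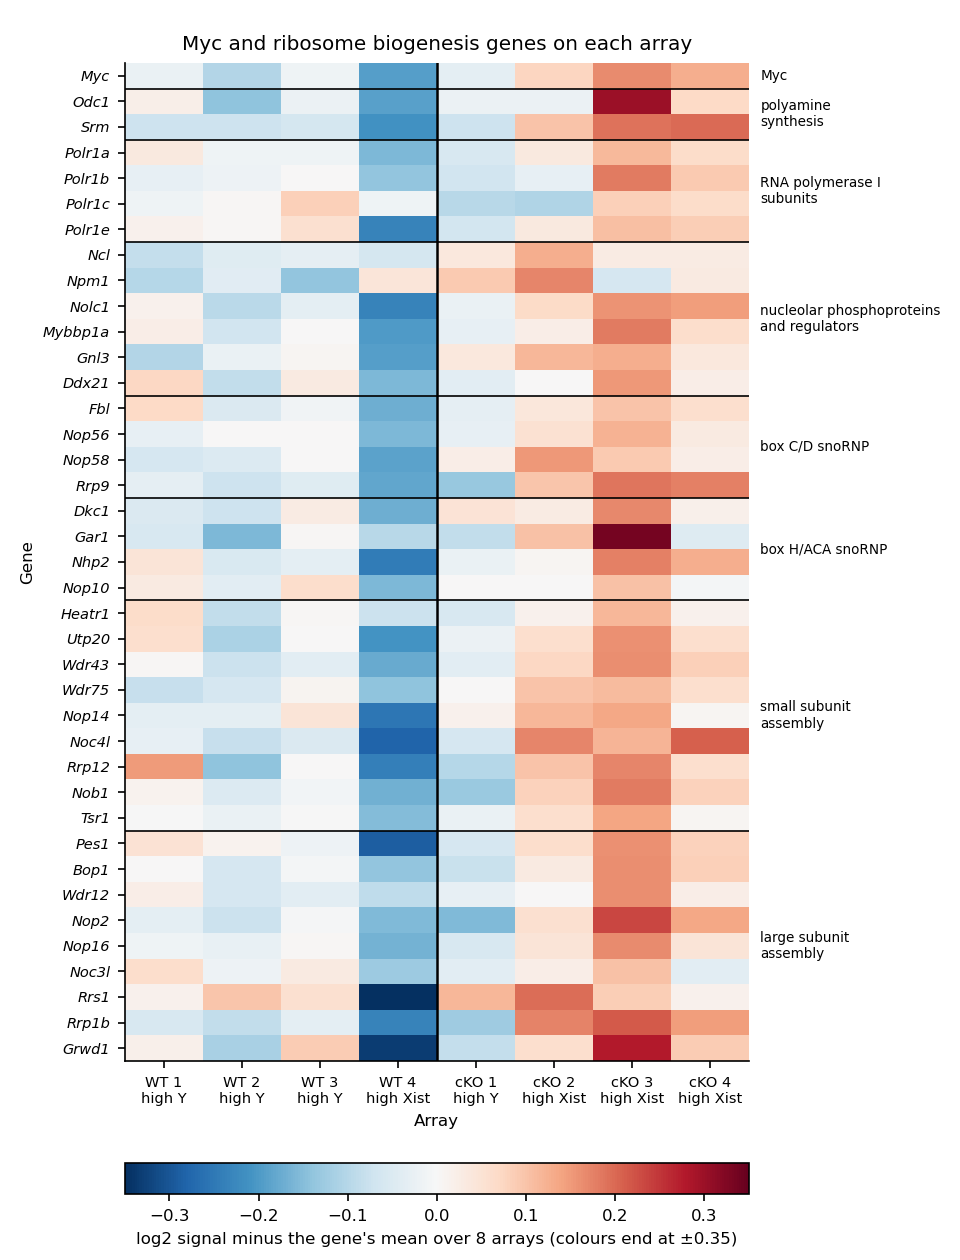
Each row is a gene and each column an array; colour gives the log2 signal minus that gene's mean over the 8 arrays, from blue (lower) to red (higher), and the labels below mark arrays with high Y-linked signal or high Xist. WT replicate 4 is the lowest array for 34 of the 39 genes and Bcl6 cKO replicate 3 the highest for 33, while Bcl6 cKO replicate 1 has a mean deviation of -0.04.

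**Figure D3:**
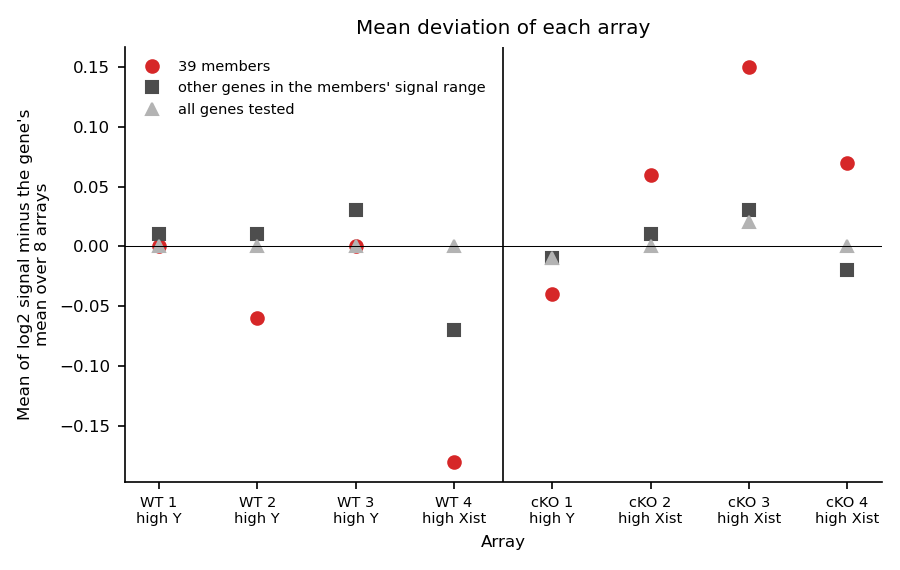
Mean deviation of each array from the genes' means over the 8 arrays, in log2 signal, for the 39 genes (circles), the 4817 other genes in their signal range (squares) and all genes tested (triangles). The members span -0.18 to 0.15, and the other genes of the same signal range -0.07 to 0.03.

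The members were also compared within the arrays of high Y-linked signal and within those of high Xist, settings added after seeing the data. Among the arrays of high Kdm5d and Uty, Bcl6 cKO replicate 1 against WT replicates 1 to 3, 12 of the 39 genes were higher and 27 lower in Bcl6 cKO, with a median difference of -0.02, the same as the median of all genes. On the arrays of high Xist, Bcl6 cKO replicates 2 to 4 against WT replicate 4, 39 of 39 were higher with a median of 0.28, against -0.01 for all genes. Each comparison rests on 1 array of one genotype, which is assumed to vary like the rest.

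Within the arrays of high Xist, where WT replicate 4 is the only WT array, 1 member, Rrs1, passed (difference 0.68, adjusted p = 0.0436). This value restates its low signal on that array (9.15). There 0.16% of all genes passed as higher and 0.0552% as lower, and 32 members were higher at an unadjusted p under 0.05, against 12.1% of all genes. Within the arrays of high Kdm5d and Uty 0 members passed in limma, as did 0% of all genes, and 0 were higher at an unadjusted p under 0.05, against 1.67% of all genes. Myc differed by 0.32 (95% interval 0.14 to 0.49) on the former and by 0.01 (-0.16 to 0.19) on the latter. The test of the difference itself, a genotype by sex interaction, passed for 0 of 39 members (adjusted p of 0.344 or more), against 0.00502% of all genes. At an unadjusted p under 0.05 it counted 23 of the 39, against 11.8% of all genes.

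With sex as a term in the fit the median difference of the members stayed at 0.12, 38 of 39 were higher and 0 passed, against 0.0251% of all genes in each direction, and 8 were higher at an unadjusted p under 0.05, against 4.78% of all genes. Within WT, 38 of 39 genes were lower on the array of high Xist than on the others (median -0.15, against -0.09 for the other genes in their signal range), and within Bcl6 cKO 37 of 39 were higher on the arrays of high Xist than on replicate 1 (median 0.13, against 0.02). Each of these values rests on 1 array, WT replicate 4 or Bcl6 cKO replicate 1, so sex and array cannot be told apart in them. Without WT replicate 4 the median difference of the members was 0.08, with 37 of 39 higher. None of them passed, against 0.0351% of all genes higher and 0.0251% lower, and 4 had an unadjusted p under 0.05, against 5.13% of all genes higher. Without both WT replicate 4 and Bcl6 cKO replicate 3 the median was 0.05 and 33 of 39 were higher. This last setting was added after seeing the data. Its left-out arrays were the lowest and the highest for most members, so a smaller median follows from the choice.

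**Figure D4:**
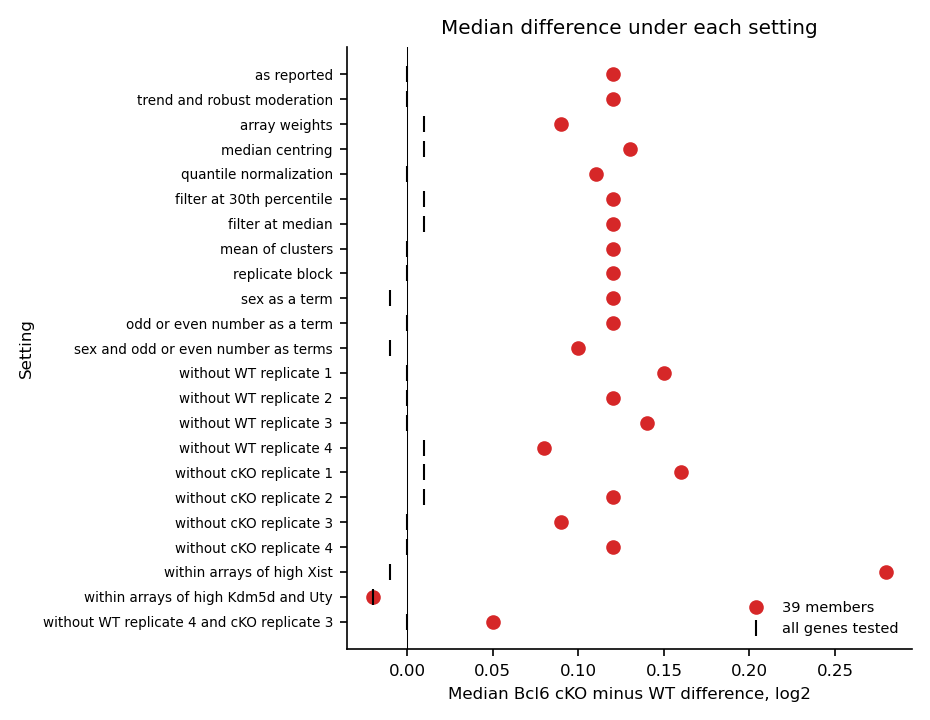
Median log2 difference (Bcl6 cKO minus WT) of the 39 genes (circles) and of all genes tested (bars) under each setting of the analysis. The members' median is 0.12 as reported, 0.08 without WT replicate 4, 0.28 within the arrays of high Xist and -0.02 within the arrays of high Kdm5d and Uty.

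Other genes of the same machinery, listed from textbook knowledge, were described in the same way. Of 80 measured assembly and RNA polymerase I genes outside the 39, 75 had higher means in Bcl6 cKO, with a median of 0.11, and 0 passed in limma (26 higher and 0 lower at an unadjusted p under 0.05). By role, 32 of 33 small subunit genes were higher (median 0.14), 33 of 36 large subunit genes (median 0.11) and 10 of 11 genes of the RNA polymerase I machinery (median 0.04). The rRNA dimethyltransferase gene Dimt1 read 10.44 ± 0.05 in WT and 10.70 ± 0.09 in Bcl6 cKO (SD, n = 4 each), a difference of 0.27 (adjusted p = 0.112), and Utp14a differed by 0.25 (adjusted p = 0.219). Rsl1d1 differed by 0.17, Las1l by 0.16, the polymerase I subunit gene Twistnb by 0.15 and Ubtf, the polymerase I transcription factor, by 0.12. Of these, Rsl1d1 lies on chromosome 16.

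**Figure D5:**
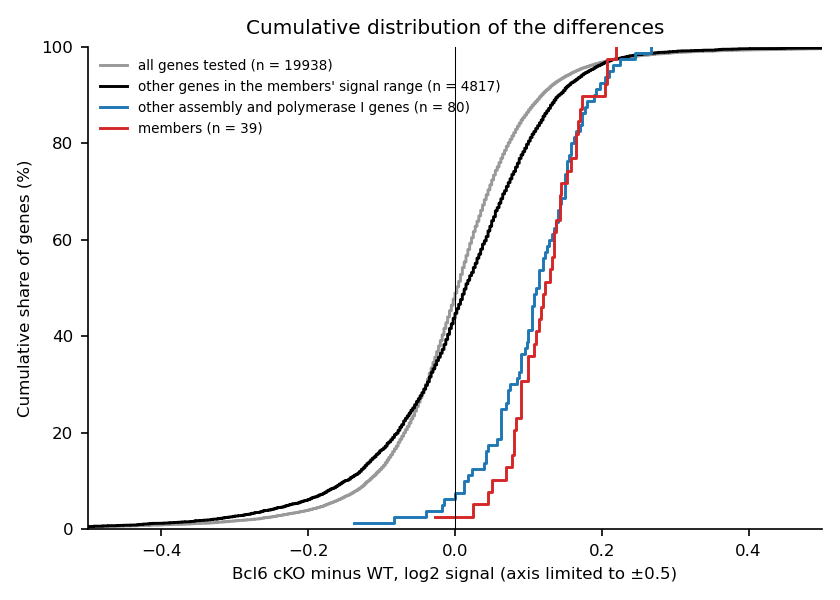
Cumulative share of genes (percent) against the log2 difference (Bcl6 cKO minus WT) for the 39 members, 80 other assembly and polymerase I genes, 4817 other genes in the members' signal range and all 19938 genes. The medians are 0.12, 0.11, 0.02 and 0.00.

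Of 22 other textbook Myc targets, 20 were higher with a median of 0.13 and 0 passed in limma (10 higher and 0 lower at an unadjusted p under 0.05). The chaperone genes Fkbp4 and Hspd1 had the smallest p among them, with differences of 0.23 and 0.19 (adjusted p = 0.177 and 0.227). Other genes of the Myc network, a list that mixes partners, antagonists, relatives and regulators of Myc, did not share this direction. Of 14 such genes 6 were higher and 8 lower, with a median of -0.02 and 0 past the threshold in limma. At an unadjusted p under 0.05, 0 were higher and 2 lower, against 4.68% of all genes higher and 6.17% lower. The groups did not overlap for 1 of the 14, which was lower (7.14%), against 3.64% of all genes. Mxd4, which competes with Myc for Max, read 9.35 ± 0.09 in WT and 9.10 ± 0.10 in Bcl6 cKO (SD, n = 4 each), and its groups did not overlap (difference -0.25, adjusted p = 0.177). Bin1, a Myc-binding protein, differed by -0.21 (adjusted p = 0.286) and Max by 0.08. Of 7 other polyamine genes 4 were higher and 3 lower. Mtap, which recycles the by-product of spermidine synthesis, differed by 0.17 and the spermine oxidase gene Smox by -0.20.

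Genes of dividing cells were listed as a measure of growth state. Of 24 proliferation genes measured, 24 were higher in Bcl6 cKO, with a median of 0.23 and 0 past the threshold in limma. At an unadjusted p under 0.05, 6 were higher (25%) and 0 lower, against 4.68% of all genes higher. The groups overlapped for all 24. The mean level of the 24 genes was 9.62 to 10.05 on the WT arrays, lowest on replicate 4. It was 9.85 to 10.32 on the Bcl6 cKO arrays, highest on replicate 4. Top2a and Ccne2 differed by 0.45 and 0.49. Among 9 activation markers 4 were higher and 5 lower (median 0.00), with Cd44 higher by 0.81 and Il2 by 0.57 (adjusted p = 0.178 and 0.343). The part of proliferation or activation state in the differences of the 39 genes was not tested, and in bulk samples more growing cells and more RNA per cell cannot be told apart.

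The 7 genes whose promoter window holds CACGTG, printed above, differed by 0.09 to 0.17 with a median of 0.13. The 25 members whose window lacks it differed by -0.03 to 0.22 with a median of 0.11. The first range lies within the second, and the match of a short motif is a description of the window only.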

How the data were processed

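The members, lists and tests were chosen with earlier results of these data known. The values the authors deposited are log2 signals for each transcript cluster. RMA and Partek are named in the submitters' processing notes; RMA brings the arrays to 1 distribution, which makes differences in total RNA per cell invisible. Their versions and the genome build are not given in the sources used. Of 35556 clusters, 21789 had 1 gene symbol in the platform annotation, 1621 several and 12146 none. The cluster with the highest mean was kept per gene. The 4 WT and 4 Bcl6 cKO arrays were compared in R 4.3.3 by limma 3.58.1, without trend, filter or covariate, with Benjamini-Hochberg adjustment over 19938 genes and a threshold of 0.05. Arrays have no read depth; their number limits the precision, and the median SE of a log2 difference was 0.065. The fit was tested on simulated data. No array was a copy of another (at most 3.94% identical values in a pair). Values per array are given for Myc and, in each role, for the genes with the smallest p and the highest mean signal. Context lists held 217 names, of which 202 were measured, and the 2 genes with the smallest p per list were named, with others chosen after their values were seen. Sex was read from Kdm5d, Uty and Xist. Alternatives covered moderation, array weights, scaling, filters, cluster choice, sex, a replicate block, replicate parity and each array left out.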

Additional observations from a re-analysis of the deposited data

Results flagged for a closer look

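Across 78 groups of 4 arrays (39 genes in 2 genotypes), 5 had a single array whose gap to the others exceeded the 95% critical value of Dixon's ratio; chance alone gives about 1 in 20 groups. On WT replicate 4, Srm was 12.87 against 13.01 to 13.02 on the other WT arrays, Tsr1 was 10.69 against 10.82 to 10.84, and Rrs1 was 9.15 against 9.75 to 9.83. On Bcl6 cKO replicate 3, Nop10 was 12.40 against 12.29 to 12.30, and on Bcl6 cKO replicate 2, Ncl was 13.28 against 13.18 to 13.19.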

How the results depend on the processing

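Over 22 alternatives, 0 members passed in either direction in limma, except 1 (Rrs1, higher) within the arrays of high Xist, a setting added after seeing the data. The members' median of 0.12 ranged from 0.08 to 0.16 with each array left out, and Myc's 0.17 from 0.13 to 0.21 (adjusted p from 0.086 to 0.995 over all alternatives). Within the arrays of high Xist the median was 0.28. Within those of high Kdm5d and Uty it was -0.02, and 6 of the genes given per array changed sign: Polr1b (-0.05), Nop56 (-0.02), Nop10 (-0.02), Noc4l (-0.01), Rrp1b (-0.07) and Nop16 (-0.04); the cause was not tested. Nop10 was also -0.02 without WT replicate 4 and Bcl6 cKO replicate 3. That setting and the one within the arrays of high Kdm5d and Uty were likewise added after seeing the data. With array weights, where WT replicate 4 had the lowest weight (0.367), the median was 0.09, and with quantile normalization 0.11. Whether replicate numbers pair the samples was not tested. The arrays as deposited all correlated at 0.994 or more. Correlations were therefore also taken of the deviations left after each gene's genotype mean was subtracted. For same-numbered arrays these were 0.0731 for replicate 1 and 0.203 to 0.206 for the others. By the same deviations, WT replicates 2, 3 and 4 correlated best with the Bcl6 cKO array of their own number. WT replicate 1 correlated best with Bcl6 cKO replicate 3. With the replicate block the median was 0.12, 0 members passed and Myc differed by 0.17. Genes past the threshold over all genes numbered 21 higher and 23 lower as reported, from 5 to 39 higher and from 5 to 100 lower with each array left out, both highest without Bcl6 cKO replicate 1 (lowest adjusted p of a member there 0.0954), and 2 and 1 without WT replicate 4 and Bcl6 cKO replicate 3.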
